A study of Mus musculus with 8 samples.

Results

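Tuft cells are rare chemosensory cells of the intestinal epithelium, and 10 genes used as their markers were followed here through normal small intestine and adenoma. The genes were taken by symbol from a table of 39179 genes, and all 10 were found: Dclk1, Trpm5, Pou2f3, Il25, Gfi1b, Alox5, Sh2d6, Ltc4s, Rgs13 and Sucnr1. A filter on low counts left 8 of them among the 18345 genes tested, with Il25 and Sucnr1 too low. RNA sequencing covered 8 libraries of whole tissue from mice on an inbred C57BL6/J background. The 3 wild-type libraries were small intestine of genotype VilCreER+, in which the villin promoter drives a tamoxifen-activated Cre recombinase in epithelial cells of the intestine. The 5 adenoma libraries were labelled small intestinal adenoma, of genotype VilCreER+ APCfl/+, with 1 floxed allele of Apc, and came from aged animals per the series' description. Tissue of both groups had undergone recombination induced with tamoxifen, so by their labels the groups differed in the floxed allele and in the tumour. Ages were not given, so age may differ as well, and the groups also differed in their sex pattern, as described below. The labels do not tie libraries to separate animals, so p-values cover the spread among these samples, which may be technical.

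A tuft cell senses luminal metabolites such as succinate through receptors at its apical tip. The signal passes through taste-type G proteins and a phospholipase to the cation channel Trpm5. The cell answers with interleukin-25 and with cysteinyl leukotrienes, lipids made by Alox5 and Ltc4s, and these activate type 2 innate lymphoid cells, whose interleukin-13 in turn expands tuft and goblet cells. The transcription factor Pou2f3 is required for the lineage. Several of the genes are not confined to tuft cells: Alox5 and Ltc4s are also made in myeloid and mast cells, Rgs13 in mast cells and germinal centre B cells, Gfi1b in megakaryocytes and erythroid cells, and Dclk1 in neurons.

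Total counts ran from 18040301 to 28343915 per library, so that 1 count was worth 0.0339 to 0.0557 CPM (the count relative to the scaled library size). The library labelled adenoma 2 went against its tissue label. Its 8 small intestinal enterocyte markers summed to 98.1 CPM against 6892 to 12870 CPM in the other adenomas and at least 20559 CPM in wild type, and it held 245.5 CPM of the hindgut gene Hoxb13, against at most 0.894 CPM elsewhere. Wild type 1 and adenoma 5 carried pancreatic markers, at 1164 and 843 CPM in sum against at most 133 CPM elsewhere. Wild type 1 also had a summed B cell marker level of 140.4 CPM, against 16.4 to 29.0 CPM in the other libraries. Adenomas 2 to 5 had a female pattern of Xist and Ddx3y and the other 4 libraries a male one, so sex and group can be told apart through adenoma 1 alone. Results were therefore also computed without adenoma 2, without wild type 1 and adenoma 5, and with sex as inferred from these genes added to the model.

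Of the 8 tuft cell genes tested, 2 were called in adenoma, both lower. The 2 genes of leukotriene synthesis fell, Alox5 to 0.469 and Ltc4s to 0.443 of the wild-type level. The other 6 genes tested, Dclk1, Trpm5, Pou2f3, Gfi1b, Sh2d6 and Rgs13, did not pass the test in either direction. So 2 of 8 were called lower and 0 higher (quasi-likelihood test of edgeR, with p adjusted by Benjamini-Hochberg over all genes and a threshold of 0.05), where 58.1% of all genes tested were called, 27.8% lower and 30.3% higher. The 2 lower calls are near the share of all genes and no result about the set. At an unadjusted p below 0.05 the count was the same, and 0 members were called higher by DESeq2 or limma-voom. The median log2 fold change of the 8 was -0.54, against 0.04 over all genes tested. Whether the 8 genes differed from each other in response was not tested. In whole tissue, fewer tuft cells and less RNA per tuft cell cannot be told apart. With inferred sex in the model, where the group difference rests on adenoma 1, neither Alox5 nor Ltc4s was called and the median of the 8 was 0.05.

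**Figure D1:**
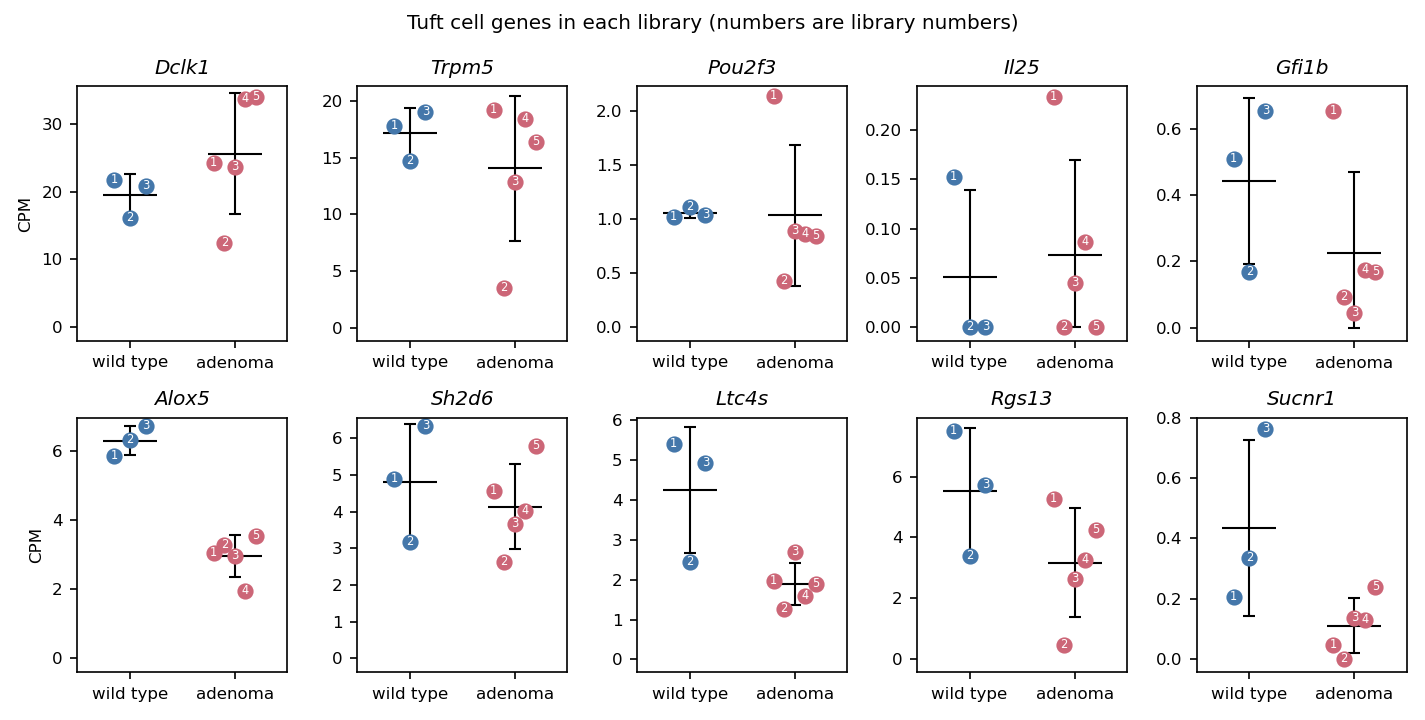
Expression of the 10 tuft cell genes in CPM on linear axes, 1 point per library with its number, for 3 wild-type (blue) and 5 adenoma (red) libraries. Horizontal lines are means and bars 1 SD, with the lower bar stopped at 0. Alox5 separates the groups, with wild type at 5.86 to 6.71 CPM and adenoma at 1.95 to 3.52 CPM, and adenoma 2 is the lowest adenoma for Dclk1, Trpm5, Pou2f3, Sh2d6, Ltc4s and Rgs13.

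**Figure D2:**
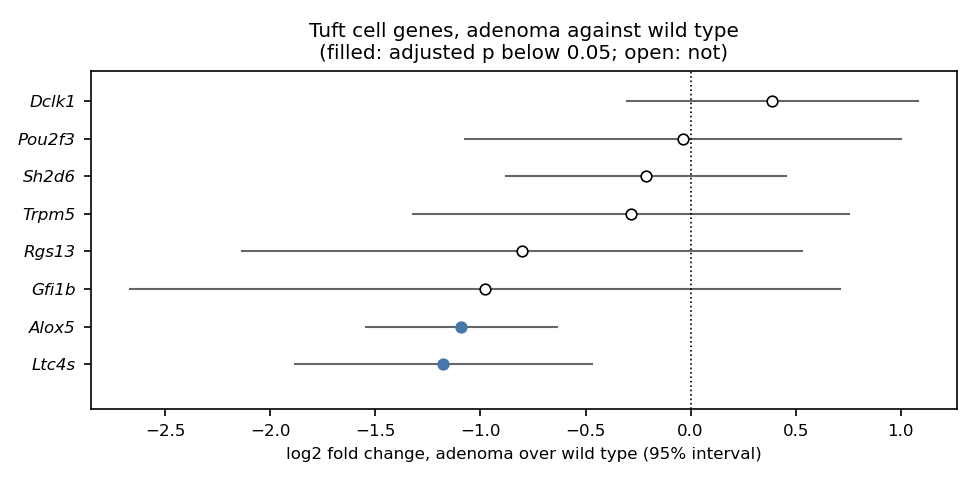
Log2 fold change of adenoma over wild type with its 95% interval for the 8 tuft cell genes tested, filled where the adjusted p was below 0.05. The intervals of Alox5 and Ltc4s lie below 0, and those of the other 6 genes include 0.

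Among the effector genes, Alox5 encodes 5-lipoxygenase, the first enzyme of leukotriene synthesis (ENSMUSG00000025701, GRCm38 chromosome 6, 116410077 to 116461178, minus strand). It stood at 5.86, 6.30 and 6.71 CPM in wild type 1, 2 and 3, and at 3.03, 3.29, 2.95, 1.95 and 3.52 CPM in adenomas 1 to 5. Every adenoma lay below every wild-type library, and of the 8 genes tested this held for Alox5 alone. Over all genes tested, 56.9% had groups that did not overlap, 27.6% with adenoma below and 29.3% with adenoma above. Mean Alox5 was 6.29 ± 0.428 CPM (SD, n = 3) in wild type and 2.95 ± 0.603 CPM (SD, n = 5) in adenoma, giving a log2 fold change of -1.09 ± 0.20 (SE; 95% interval -1.55 to -0.64; adjusted p = 0.00186). Adenoma 2 was not low for this gene, at 115% of the mean of the other adenomas, and without it the log2 fold change was -1.14 (adjusted p = 9.01e-04). The sex covariate ended the call, with -1.05 on the log2 scale (adjusted p = 0.0649), while adenoma 1, the male-pattern adenoma, was at 3.03 CPM.

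Ltc4s encodes leukotriene C4 synthase, which joins glutathione to the Alox5 product to make the first cysteinyl leukotriene (ENSMUSG00000020377, chromosome 11, 50236461 to 50238616, minus strand). It stood at 5.40, 2.45 and 4.91 CPM in wild type and at 1.96, 1.27, 2.68, 1.60 and 1.90 CPM in adenomas 1 to 5. Wild type 2 fell inside the adenoma range, below adenoma 3, and the other wild-type libraries lay above all 5 adenomas. Mean Ltc4s was 4.25 ± 1.58 CPM in wild type against 1.88 ± 0.525 CPM, giving a log2 fold change of -1.18 ± 0.31 (95% interval -1.88 to -0.47; adjusted p = 0.0109). The call was lost without wild type 1 (log2 fold change -0.96, adjusted p = 0.0543), without wild type 1 and adenoma 5 together (adjusted p = 0.0905), and with the sex covariate (adjusted p = 0.167). An antisense gene, Gm26542, shares 268 of the 1014 exonic bases of Ltc4s, and its own counts were 58 to 64 per library in wild type and 24 to 43 in adenoma. The kit did not keep strand, so reads of the shared bases cannot be told apart.

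Since both genes fell and act in consecutive steps, the 250 bases before their RefSeq starts (build GRCm38.p6) are shown, 5′ to 3′ on the gene's strand. Capitals mark the GC box letters GGGCGG, searched on both strands as were the octamer ATGCAAAT, to which POU factors such as Pou2f3 bind, and the TCF and LEF core letters CTTTGAT or CTTTGAA. The 3 motifs do not overlap here. The Alox5 window lies at chr6:116461179-116461428 and the Ltc4s window at chr11:50238533-50238782, both on the minus strand. The Ltc4s window overlaps the GENCODE gene model given above, which reaches 50238616, so RefSeq and GENCODE place its start differently.
Alox5: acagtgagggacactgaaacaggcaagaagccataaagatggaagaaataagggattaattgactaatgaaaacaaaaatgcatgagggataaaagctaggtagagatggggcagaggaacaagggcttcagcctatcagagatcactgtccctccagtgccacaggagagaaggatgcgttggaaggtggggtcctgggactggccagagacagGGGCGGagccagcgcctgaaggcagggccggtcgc
Ltc4s: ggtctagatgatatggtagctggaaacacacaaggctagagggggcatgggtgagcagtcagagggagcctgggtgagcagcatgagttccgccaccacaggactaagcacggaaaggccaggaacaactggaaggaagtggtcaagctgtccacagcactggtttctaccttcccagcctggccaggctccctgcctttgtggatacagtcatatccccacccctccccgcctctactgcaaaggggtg

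The Alox5 window held 1 GC box, 35 to 30 bases before the start, and the Ltc4s window held none of the 3 motifs. Of 32817 promoter windows of the same length, 32.7% held a GC box, 7.48% a TCF and LEF core and 1.60% an octamer. Promoters were found for 8 of the 10 genes. The only octamer among their 9 windows was in Sucnr1, 48 to 41 bases before the start. These are matches of letters and were not tested as binding sites.

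Il25 encodes the cytokine by which tuft cells activate type 2 lymphoid cells (ENSMUSG00000040770, chromosome 14, 54932695 to 54935837, plus strand). It had 3, 0 and 0 counts in wild type and 5, 0, 1, 2 and 0 counts in adenomas 1 to 5. Both groups had libraries at 0, and a count of 0 allows up to 0.167 CPM for wild type 2 and up to 0.141 CPM for adenoma 2, taking 3 counts as the limit. The ratio of summed counts, adenoma over wild type, was 1.27 with an exact 95% counting interval of 0.304 to 7.41. A difference in Il25 was not detectable at this depth. Such intervals and limits cover counting error only.

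The sensing genes differed in how well they were measured. Trpm5 encodes the calcium-activated cation channel that depolarises the tuft cell (ENSMUSG00000009246, chromosome 7, 143069153 to 143094642, minus strand). It stood at 17.8, 14.7 and 19.0 CPM in wild type and at 19.2, 3.52, 12.8, 18.4 and 16.4 CPM in adenomas 1 to 5. Adenomas 1, 4 and 5 lay within or just above the wild-type range, adenoma 3 slightly below it, and adenoma 2 far below. The means were 17.2 ± 2.20 and 14.1 ± 6.40 CPM, a log2 fold change of -0.28 ± 0.45 (95% interval -1.32 to 0.75; adjusted p = 0.609). Without adenoma 2 the log2 fold change was -0.04 (adjusted p = 0.809). The gene Tssc4 on the opposite strand shares 220 of the 6398 exonic bases of Trpm5. Its own counts were 309 to 326 per library in wild type and 492 to 807 in adenoma.

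Sucnr1 encodes the succinate receptor, by which small intestinal tuft cells detect microbial succinate (ENSMUSG00000027762, chromosome 3, 60081869 to 60087566, plus strand). It had 4, 6 and 14 counts in wild type and 1, 0, 3, 3 and 7 counts in adenomas 1 to 5, or 24 against 14 in sum. The ratio of summed counts was 0.277 with a counting interval of 0.132 to 0.557, which leaves out the spread between libraries. The groups overlapped, with adenoma 5 at 0.237 CPM above wild type 1 at 0.204 CPM. Fitted with no filter, Sucnr1 had a log2 fold change of -1.80 and an adjusted p of 0.0717.

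The lineage factors were low in both groups. Pou2f3 (ENSMUSG00000032015, chromosome 9, 43123939 to 43210369, minus strand) stood at 1.02, 1.11 and 1.04 CPM in wild type and at 2.14, 0.423, 0.894, 0.865 and 0.846 CPM in adenomas 1 to 5. The wild-type libraries were close together. Adenoma 1 stood above them and the other 4 adenomas below. The means were 1.06 ± 0.0511 and 1.03 ± 0.650 CPM, a log2 fold change of -0.04 ± 0.46 (95% interval -1.07 to 1.00; adjusted p = 0.951), so a change of up to a factor of about 2 either way lies within the interval. The sign of this value near 0 changed under 9 of the 19 alternatives that gave one.

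Gfi1b, a zinc finger repressor found in tuft cells among epithelial cells (ENSMUSG00000026815, chromosome 2, 28609450 to 28621982, minus strand), had 10, 3 and 12 counts in wild type and 14, 2, 1, 4 and 5 counts in adenomas 1 to 5. Adenoma 1 again was the highest adenoma, at 0.653 CPM, level with wild type 3 at 0.655 CPM. The other 4 adenomas lay at 0.0447 to 0.173 CPM, about the level of wild type 2 at 0.167 CPM or below it. The log2 fold change was -0.98 ± 0.74 (95% interval -2.67 to 0.71; adjusted p = 0.284). Among megakaryocyte and platelet markers, with which Gfi1b is shared, 3 of 5 tested were higher and 1 lower in adenoma, beside 30.3% and 27.8% of all genes. The markers summed to 30.1 to 32.3 CPM in wild type against 55.1 to 79.1 CPM in the adenomas. The lower call was lost without any 1 wild-type library and without adenoma 1, 4 or 5. It was also lost with no filter and under scaling by total counts or by pan-epithelial genes. The same held with the replicate number as a block and with the sex covariate. All 7 erythrocyte markers were higher, beside 30.3% of all genes. The part of these cells in the Gfi1b counts was not tested.

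The remaining 3 genes act inside the cell. Dclk1 encodes a microtubule-associated kinase and is the most used tuft cell marker in mice (ENSMUSG00000027797, chromosome 3, 55242364 to 55539068, plus strand). It stood at 21.7, 16.1 and 20.8 CPM in wild type and at 24.2, 12.3, 23.7, 33.7 and 34.0 CPM in adenomas 1 to 5. Adenomas 1, 3, 4 and 5 lay above all wild-type libraries and adenoma 2 below them. The means were 19.6 ± 3.03 and 25.6 ± 8.90 CPM, a log2 fold change of 0.39 ± 0.30 (95% interval -0.30 to 1.08; adjusted p = 0.299). Without adenoma 2 Dclk1 was called higher, with 0.56 on the log2 scale (adjusted p = 0.0170), in a fit that called 67.5% of all genes tested, 34.0% of all of them higher. When the 5 adenomas and 3 wild-type libraries were scaled by 10 pan-epithelial genes instead, Dclk1 had a log2 fold change of 0.08 (adjusted p = 0.833), where the median of all genes moved from 0.04 to -0.21. Those 10 genes themselves had a median log2 fold change of 0.63 in adenoma.

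Dclk1 has 2 RefSeq starts, a distal one and one inside the gene that begins a shorter product, and the deposited counts pool them. Their upstream windows are shown for that reason, with capitals marking the TCF and LEF core letters, at chr3:55242114-55242363 for the distal start and chr3:55461478-55461727 for the internal one, both on the plus strand (GRCm38.p6).
Dclk1 distal start: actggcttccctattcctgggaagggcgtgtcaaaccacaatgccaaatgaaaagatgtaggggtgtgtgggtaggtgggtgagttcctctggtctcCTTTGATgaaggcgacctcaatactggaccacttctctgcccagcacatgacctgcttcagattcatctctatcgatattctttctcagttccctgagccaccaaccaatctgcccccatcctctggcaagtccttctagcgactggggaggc
Dclk1 internal start: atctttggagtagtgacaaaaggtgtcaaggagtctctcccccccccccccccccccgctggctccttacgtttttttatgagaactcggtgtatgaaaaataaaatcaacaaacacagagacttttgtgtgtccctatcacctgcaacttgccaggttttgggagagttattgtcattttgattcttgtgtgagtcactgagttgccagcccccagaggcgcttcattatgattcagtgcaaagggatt

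The distal window held 1 TCF and LEF core, 153 to 147 bases before the start, and the internal window held none of the 3 motifs. Which start the reads came from cannot be read from counts per gene. Of 10 enteric neuron and glia markers, another source of Dclk1, 1 was higher and 4 lower in adenoma, beside 30.3% and 27.8% of all genes. The markers summed to 23.3 to 26.1 CPM in wild type against 27.6 to 37.2 CPM in the adenomas. The higher gene, Ret, made a large part of these sums, so they do not show a rise of the markers in general. The median log2 fold change of the 10 markers was -0.93. Gfap, a glial filament gene, was called lower, at 1.196 ± 0.0793 and 0.299 ± 0.117 CPM (adjusted p = 0.00115), as was neuronal Elavl4, at 1.70 ± 0.278 and 0.464 ± 0.253 CPM (adjusted p = 0.00388). Ret, a receptor kinase of enteric neurons, was called higher, at 8.58 ± 0.866 and 17.8 ± 4.33 CPM (adjusted p = 0.00301). The Ret call was lost under scaling by pan-epithelial genes (log2 fold change 0.84, adjusted p = 0.0873) and with the sex covariate. Tubb3, Uchl1 and S100b had positive values that did not pass the test. The part of neurons in the Dclk1 counts was not tested.

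Sh2d6, an adaptor with an SH2 domain (ENSMUSG00000052631, chromosome 6, 72513641 to 72521707, minus strand), stood at 4.89, 3.18 and 6.33 CPM in wild type and at 4.57, 2.63, 3.66, 4.02 and 5.79 CPM in adenomas 1 to 5. The groups overlapped over most of their range. The log2 fold change was -0.21 ± 0.29 (95% interval -0.88 to 0.45; adjusted p = 0.553). It changed sign without wild type 3, to 0.04.

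Rgs13 encodes a regulator that switches off G protein signals (ENSMUSG00000051079, chromosome 1, 144138654 to 144177372, minus strand). It stood at 7.49, 3.40 and 5.73 CPM in wild type and at 5.27, 0.470, 2.64, 3.24 and 4.23 CPM in adenomas 1 to 5. Adenoma 2 was far below all others, and wild type 1, the library with the most B cell marker RNA, was highest. The means were 5.54 ± 2.05 and 3.17 ± 1.81 CPM, a log2 fold change of -0.80 ± 0.58 (95% interval -2.14 to 0.53; adjusted p = 0.265), which was -0.53 without adenoma 2 (adjusted p = 0.146). The part of B cells in the Rgs13 counts of wild type 1 was not tested.

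Adenoma 2, the library without small intestinal markers, was lowest of the 5 adenomas for 6 of the 8 genes tested, where 36.4% of all genes tested were lowest there. Its Rgs13 was at 12.2% and its Trpm5 at 21.1% of the mean of the other adenomas, Pou2f3 at 35.6%, Gfi1b at 36.1%, Dclk1 at 42.7%, Sh2d6 at 58.3% and Ltc4s at 62.3%. So 5 of the 8 lay under 50%, a limit chosen after the values were seen, against 8.25% of all genes tested. Dixon's test of the lowest against the range, run on linear CPM, marked adenoma 2 for no single gene where it was the farthest library. Ratios were 0.593 for Trpm5, 0.525 for Dclk1 and 0.452 for Rgs13 against a critical value of 0.71. A linear scale compresses low values, so this cannot decide whether adenoma 2 stood apart. The test was not run on log2 CPM, where Trpm5 was at 1.85 in adenoma 2 and at 3.69 to 4.27 in the other adenomas. The pan-epithelial genes were also low in adenoma 2, at 5937 CPM in sum against 7970 to 10322 CPM in the other adenomas. Of these 10 genes, 6 were called higher and 2 lower in adenoma, beside 30.3% and 27.8% of all genes. Their median log2 fold change was 0.63, so a scale built on them is not neutral between the groups. Counted per pan-epithelial counts, adenoma 2 still held 19.1% of the Rgs13, 33.2% of the Trpm5 and 66.7% of the Dclk1 of the other adenomas, but 90.4% of the Sh2d6 and 99.1% of the Ltc4s. On that scale all 5 adenomas lay below all 3 wild-type libraries for Trpm5 as well as for Alox5 and Ltc4s, although Trpm5 did not pass the test (log2 fold change -0.64, adjusted p = 0.171). Of all genes tested, 26.4% had all adenomas below all wild-type libraries on that scale, so 3 of 8 is near the background. Alox5 was at -1.32 and Ltc4s at -1.46, both called, where 26.4% of all genes were called lower under this scaling. Among the wild-type libraries, wild type 2 was lowest for 6 of the 8 genes, where 31.9% of all genes tested were lowest there.

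**Figure D3:**
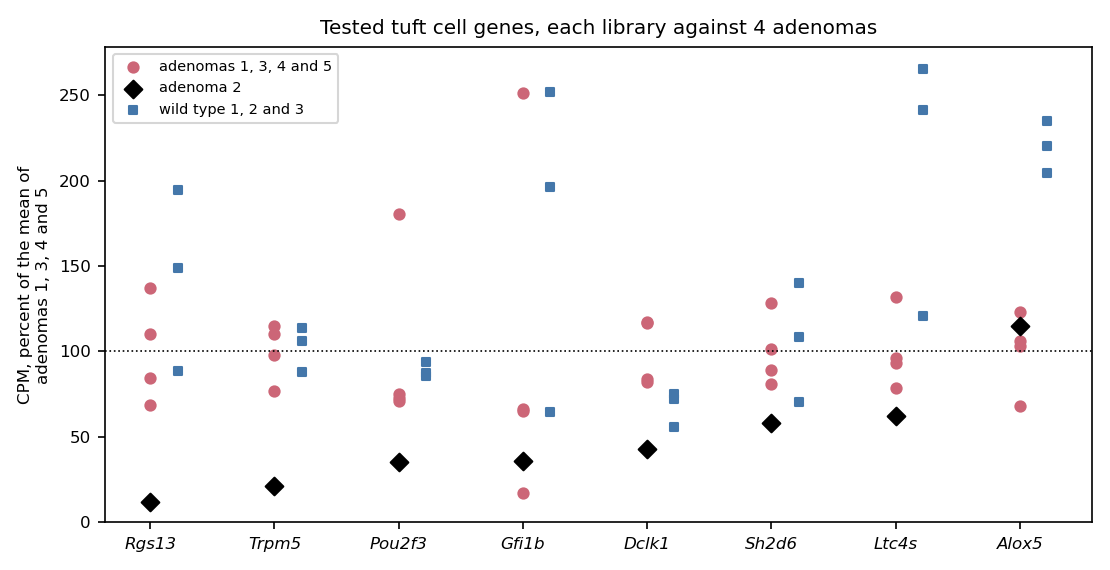
CPM of each library as a percentage of the mean of adenomas 1, 3, 4 and 5, for the 8 tuft cell genes tested, ordered by adenoma 2 (black diamonds). Red circles are the other adenomas and blue squares the wild-type libraries. Adenoma 2 lies at 12.2% for Rgs13 and 21.1% for Trpm5, and at 115% for Alox5, where all 3 wild-type libraries lie above all adenomas.

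Levels of different genes were compared per kilobase of annotated exon. In wild type Ltc4s was first at 4.19 ± 1.56 CPM per kilobase, followed by Rgs13 at 3.35 ± 1.24, Sh2d6 at 2.84 ± 0.934 and Trpm5 at 2.68 ± 0.344, and these neighbours did not differ beyond their spread. Alox5 at 1.53 ± 0.104 and Dclk1 at 1.28 ± 0.198 CPM per kilobase came next, above Pou2f3 at 0.342 ± 0.0166, Sucnr1 at 0.265 ± 0.179, Gfi1b at 0.242 ± 0.137 and Il25 at 0.0479 ± 0.0829. In adenoma Sh2d6 was first at 2.45 ± 0.689 CPM per kilobase, then Trpm5 at 2.20 ± 1.00, Rgs13 at 1.92 ± 1.09, Ltc4s at 1.85 ± 0.517 and Dclk1 at 1.67 ± 0.582. Ltc4s thus went from the first place to below Sh2d6, Trpm5 and Rgs13, by differences smaller than the spread. Exonic length counts every annotated exon, so a gene with long unused exons would come out low. Dclk1 has 15296 exonic bases, and which of its exons were used was not measured.

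The members differed in how alike their patterns were over the 8 libraries, measured as the root-mean-square difference of log2 CPM after centring each gene. Trpm5 and Rgs13 were the closest to each other relative to other genes, at a difference of 0.43, with 106 of 16021 genes nearer to Trpm5 and 10 nearer to Rgs13. Alox5 and Ltc4s differed by 0.46, with 3116 genes nearer to Alox5 and 1221 nearer to Ltc4s. For naming the nearest genes, models named by number or clone, Rik names, antigen receptor segments and identifiers without a symbol were passed over. Among the other tested genes averaging 1 CPM or more, the nearest to Trpm5 were Mdh2, Plac8 and Oasl1, at 0.21 to 0.25. The nearest to Alox5 were Capn12, Runx1t1 and Crebbp, at 0.10 to 0.13. The 3 nearest to Dclk1 were Lipa, Slc23a2 and Pcx, those to Pou2f3 Ide, Xk and Scn3b, and those to Gfi1b Xcr1, N4bp2l1 and Slc14a1. Nearest to Sh2d6 were Slc4a7, Gstm4 and Gstp1, and nearest to Rgs13 Ugt1a7c, Gpd1 and Fam234b. The 3 nearest to Ltc4s were Gstm6, Atl2 and Gstt1, of which Gstm6 and Gstt1 encode glutathione transferases. With 8 libraries and 1 that stands apart, this is a description of these libraries.

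Of 9 genes tested out of 11 for taste-type signalling inside the cell, 4 were lower and 1 higher, beside 27.8% lower and 30.3% higher among all genes. Their median log2 fold change was -0.59. Plcb2, the phospholipase of taste transduction, which is also made in blood cells, fell from 19.0 ± 2.34 to 4.91 ± 0.626 CPM (log2 fold change -1.95 ± 0.14, adjusted p = 2.44e-05). Tas1r3, a subunit of sweet and umami receptors, fell from 9.29 ± 0.677 to 4.42 ± 0.753 CPM (adjusted p = 7.36e-04). Both held in adenoma 2, at 115% and 113% of the other adenomas. The higher gene was Itpr3, an inositol trisphosphate receptor made in many epithelial cells, at 238 ± 23.8 CPM in wild type against 341 ± 28.1 CPM (adjusted p = 0.00513). Gnat3, the taste G protein alpha subunit gustducin, was not tested, with 4 to 14 counts in wild type and 2 to 8 in adenoma. Leaving out wild type 1 reduced the lower calls to 2, as did the sex covariate. The Itpr3 call was lost with the replicate number as a block and under scaling by pan-epithelial genes, the latter at a log2 fold change of 0.25.

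Of a broader set of 30 genes known from tuft cell profiles, 27 were tested, 9 of them higher and 7 lower, which is near the shares of 30.3% and 27.8% among all genes and no result about the set. The median over the 27 was -0.08 on the log2 scale. Avil, or advillin, an actin-binding protein of the tuft cell's microvilli, stood at 7.47 to 12.2 CPM in wild type and at 288, 120, 171, 268 and 258 CPM in adenomas 1 to 5. That is a log2 fold change of 4.41 ± 0.37 (adjusted p = 5.09e-05), in libraries where no tuft cell gene of the 10 passed the test upward. Skap2, an adaptor protein, rose from 33.7 ± 2.77 to 78.7 ± 5.89 CPM and Tuba1a, an alpha tubulin, from 21.0 ± 2.05 to 59.2 ± 1.92 CPM. Fyb, an adaptor shared with blood cells, fell from 16.4 ± 1.26 to 4.20 ± 0.595 CPM. Sh2d7, an adaptor gene, fell from 8.63 ± 2.56 to 3.78 ± 1.66 CPM (adjusted p = 0.0271), and Il17rb, a receptor subunit for interleukin-25, from 5.18 ± 0.389 to 3.40 ± 0.662 CPM (adjusted p = 0.0236). Without wild type 1 their adjusted p was 0.0987 and 0.0747. The Sh2d7 call was also lost without wild type 3 or adenoma 4 (adjusted p = 0.0902 and 0.0584), and the Il17rb call without wild type 2 (adjusted p = 0.0716). The lower calls of the set numbered 3 without wild type 1, 10 without adenoma 2 and 2 with the sex covariate.

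Of 14 other genes of leukotriene and prostaglandin D synthesis and sensing, 3 were higher and 6 lower, beside 30.3% and 27.8% of all genes. The lower calls numbered 1 with the sex covariate and 3 with a replicate block. Their median was -0.60 on the log2 scale. Alox5ap, the membrane protein that presents arachidonic acid to Alox5, was higher in adenoma, at 4.82 ± 0.828 CPM against 3.03 ± 0.264 CPM (log2 fold change 0.67 ± 0.19, adjusted p = 0.0149), a call lost without wild type 1 (adjusted p = 0.0514) and when libraries were scaled by the pan-epithelial genes (adjusted p = 0.345). Lta4h, which makes leukotriene B4 from the same intermediate that Ltc4s uses, fell from 187 ± 17.4 to 124 ± 8.92 CPM (adjusted p = 0.00105). The cysteinyl leukotriene receptor genes fell as well, Cysltr2 from 3.13 ± 0.924 to 1.18 ± 0.202 CPM (adjusted p = 0.00142) and Cysltr1 from 8.48 ± 0.906 to 5.33 ± 0.703 CPM (adjusted p = 0.00488). Abcc1, the exporter of leukotriene C4 and of many other conjugates, rose from 34.6 ± 5.89 to 97.4 ± 10.95 CPM (adjusted p = 8.21e-05). Ptgs2, the inducible cyclooxygenase, rose from 4.30 ± 0.452 to 43.2 ± 14.1 CPM. Ptgs1, the cyclooxygenase found in tuft cells, did not pass the test, at 56.03 ± 5.28 and 50.8 ± 6.99 CPM (adjusted p = 0.356).

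Mast cells and macrophages also make leukotrienes, and their markers are given beside Alox5 and Ltc4s. Of 11 mast cell markers, 9 were tested and 8 were higher in adenoma and 0 lower, beside 30.3% higher among all genes. The higher calls numbered 4 without wild type 1, 5 without wild type 2, 4 by limma-voom and 2 with the sex covariate. In sum they made 16.8 to 21.9 CPM in wild type but 66.5 to 168 CPM in the adenomas. Mcpt2, a protease of mucosal mast cells, rose from 1.12 ± 0.603 to 34.3 ± 15.7 CPM (adjusted p = 6.61e-04), and the mast cell gene Tpsab1 was at 0 counts in wild type. Macrophage and monocyte markers had 1 of 10 higher and 1 lower, with wild-type sums of 408 to 490 CPM and adenoma sums of 349 to 862 CPM, with adenoma 2 highest for all 10. Neutrophil markers had 4 of 5 tested higher, with wild-type sums of 3.68 to 4.58 CPM and adenoma sums of 9.92 to 82.1 CPM, and Elane was at 0 in all 8 libraries. Of 4 eosinophil markers tested, Siglecf, which is also made in tuft cells, was lower and 3 did not pass the test. The parts of these cells in the Alox5 and Ltc4s counts were not tested.

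Of 17 genes of the type 2 circuit around tuft cells 13 were tested, 5 of them higher and 4 lower, near the shares of 30.3% and 27.8% among all genes, around a median of 0.12 on the log2 scale. Il1rl1, the receptor for interleukin-33, rose from 12.3 ± 3.02 to 148 ± 39.4 CPM (log2 fold change 3.58 ± 0.29, adjusted p = 4.03e-05). Il33, the alarmin itself, stood at 36.3 to 48.2 CPM in wild type and at 222, 33.0, 116, 189 and 170 CPM in adenomas 1 to 5, so that adenoma 2 alone lay below the wild-type range (adjusted p = 0.0222). The Il33 call was lost without any 1 wild-type library, at adjusted p of 0.0506 to 0.0736. Retnlb, a goblet cell product induced by interleukin-13, was higher, with a log2 fold change of 5.99 (adjusted p = 2.58e-04). It had only 7 raw counts in sum over the wild-type libraries, and a mean of 8.29 ± 4.19 CPM in adenoma. Clca1, another goblet cell product induced by interleukin-13, fell from 721 ± 167 to 246 ± 147 CPM (adjusted p = 0.0247). That call was lost without wild type 1, wild type 3 or adenoma 4 (adjusted p = 0.0672, 0.0793 and 0.0534). Il13 had 4 counts over wild type and 1 over adenoma, Il5 had 9 and 2, and Il9 had 3 and 0. The higher and lower calls of this set were 3 and 1 without wild type 1, 3 and 3 without wild type 3, 4 and 2 without adenoma 4, and 2 and 1 without wild type 1 and adenoma 5. They were 3 and 0 both with the sex covariate and with a replicate block.

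**Figure D4:**
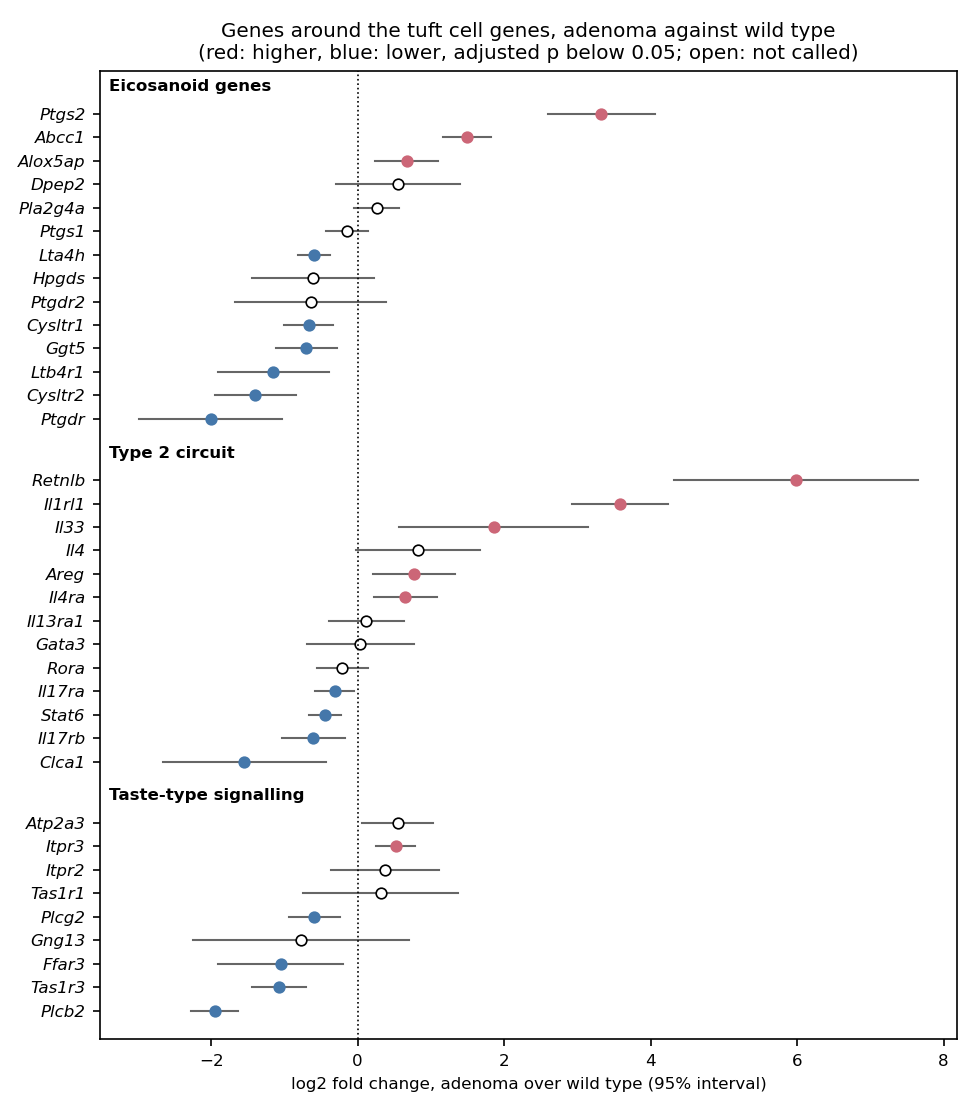
Log2 fold change of adenoma over wild type with its 95% interval for tested genes of eicosanoid synthesis and sensing, of the type 2 circuit and of taste-type signalling (red higher, blue lower, open not called). Retnlb, Il1rl1 and Ptgs2 lie farthest right, at 5.99, 3.58 and 3.33, and Ptgdr and Plcb2 farthest left, at -2.01 and -1.95.

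Other secretory cells and their fate factors were read beside the tuft cell genes. Of 9 enteroendocrine markers, 8 were lower in adenoma and 1 did not pass the test, beside 27.8% lower among all genes, and with the sex covariate 3 were lower. Their median was -1.98 on the log2 scale. Of 13 factors of secretory fate, 5 were higher and 3 lower, near the shares among all genes. The lower calls numbered 6 without adenoma 2 and 0 with the sex covariate. Sox4, a factor used by tuft and enteroendocrine progenitors, rose from 14.8 ± 1.22 to 114 ± 25.96 CPM (adjusted p = 2.08e-05). Gfi1, the relative of Gfi1b in other secretory cells, fell from 6.88 ± 0.754 to 4.30 ± 1.07 CPM (adjusted p = 0.0233), a call lost without wild type 1 or wild type 3 (adjusted p = 0.0846 and 0.0651). Atoh1, required for secretory lineages other than part of the tuft cells, did not pass the test, at 16.6 ± 1.36 and 19.4 ± 3.96 CPM. Whether the tuft cell genes differ in response from these lists was not tested.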

How the data were processed

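The authors deposited raw counts per gene for 8 libraries. The tools named in the submitters' processing notes are HTSeq, TopHat2 and FastQC, and the build is GRCm38. Their versions, the annotation and the strand setting were not given in those sources. Per the labels' protocols, the TruSeq RNA v2 kit was used, which does not keep strand. Symbols and positions came from GENCODE M21 (GRCm38) and promoters from RefSeq (GRCm38.p6).

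Counts were fitted with edgeR 4.0.16 (R 4.3.3): filterByExpr, TMM scaling, robust quasi-likelihood tests and Benjamini-Hochberg adjustment at 0.05 over 18345 genes, tested on simulated data first. Intervals of log2 fold changes use the SE and the moderated degrees of freedom. Log2 CPM used a prior count of 2. DESeq2 1.42.0 and limma-voom (limma 3.58.1) were alternatives, beside other scalings, filters and left-out libraries.

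The 10 members and the 19 other gene lists were chosen with earlier results of these data known. Named genes were all members, the 3 genes most like each, and some of those a rule allowed per list: up to 4 called genes by adjusted p and the leading one of the minority direction. Avil, Tubb3, Uchl1, S100b, Sh2d7, Il17rb, Ptgs1, Ptgdr, Cysltr1, Alox5ap, Il33, Clca1, Il5, Il9, Il13, Gnat3, Elane, Tpsab1, Gfi1 and Atoh1 fall outside that rule and were chosen after their values were seen.

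Within groups no library pair agreed within sampling noise, with chi-square per degree of freedom of at least 20.1.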

Additional observations from a re-analysis of the deposited data

Results flagged for a closer look

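On linear CPM, adenoma 1 stood apart from the other 4 adenomas for 2 of the 10 tuft cell genes. The measure was the gap to its nearest neighbour relative to the range, with a limit of 0.71. The share of all genes passing that limit was not computed, and the test was not run on log2 CPM. Pou2f3 was at 2.14 CPM in adenoma 1, with the next adenoma at 0.894 CPM, and Gfi1b was at 0.653 CPM, with the next at 0.173 CPM. These rest on 46 and 14 counts. On log2 CPM, Pou2f3 was at 1.16 in adenoma 1, at -0.02 in the next adenoma and at -0.96 in the lowest. Gfi1b was at -0.43, -1.92 and -2.87 in the same order, so the gaps depend on the scale. Chance marks about 1 in 20 such groups of normally distributed values, which low counts need not follow. Il25 was also highest in adenoma 1, with 5 counts, without passing that limit. Adenoma 1 is the adenoma with a male pattern of Xist and Ddx3y. The part of sex in these levels was not tested.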

How the results depend on the processing

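Of 154 values of the 8 genes over 20 alternatives, 136 kept their direction and their side of the threshold. Rgs13, never called, ran from -1.35 with the replicate block to -0.07 with the sex covariate. Over the left-out libraries, the genes called in all numbered 8664 to 12276 (10657 in full), tuft cell genes called lower 1 to 2, and called higher 0 to 1, the 1 being Dclk1 without adenoma 2. Genes called in all were 6863 under scaling by pan-epithelial genes, with 2015 higher and 4848 lower against 5558 and 5099, and a median over all genes of -0.21. They were 5372 with the sex covariate, which left 0 tuft cell genes called lower. A filter of 5 CPM in 3 libraries kept 4 members and called 1 lower, and leaving out wild type 1 and adenoma 5 also left 1. The sign of Pou2f3, never called, turned to 0.033 with total-count scaling, 0.030 with no filter, 0.010 without wild type 1 and adenoma 5, and 1.02 with the sex covariate, and ran from -0.48 to 0.15 over the left-out libraries. Under that covariate Trpm5 went to 0.16 and Gfi1b to 0.55, and Sh2d6 ran from -0.43 to 0.041 over the left-out libraries, the latter without wild type 3. The cause of these changes was not tested. Same-numbered libraries did not pair, with correlations of their deviations of -0.02, 0.05 and 0.06. With the replicate number as a block 6549 genes were called, the same 2 tuft cell genes were lower, and Dclk1 was at -0.011. Gfi1b, Il25 and Sucnr1 rest on few counts, which limits what this depth can show.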
